A study of Mus musculus with 32 samples.

Results

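Intergenic DNA targets are the places on chromatin where an RNA was captured and where no annotated gene lies. They were taken from RADICL-seq, in which RNA and the DNA beside it are joined within fixed nuclei, so that each sequenced molecule holds an RNA tag and a DNA tag. An interaction was counted as intergenic when the deposited file gave no gene for its DNA tag on any of its lines, and as genic otherwise. By this rule 5833040 of 25231081 interactions (23.1%) in 15 libraries were intergenic. They fell in 48516 of the 77807 genomic bins of 25 kb that held any interaction, and came from 14036 of 17784 RNAs. Malat1, an abundant nuclear long noncoding RNA (lncRNA) that contacts many chromosomes, made 293782 of them (5.04%) and is shown apart, so values below are for the other RNAs unless Malat1 is named.

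Most of a mammalian genome lies outside protein-coding exons, and the stretches between genes hold promoters, enhancers, repeats and the regions into which polymerases run after the end of a gene. A nascent RNA is tethered to its gene by the polymerase and can touch the DNA that lies near that gene in the folded chromosome. Released noncoding RNAs such as Malat1 and the small nuclear RNAs can reach other chromosomes, which is called a trans contact, as against a cis contact on the chromosome of origin. Neither kind of contact says that the RNA acts on the DNA it was ligated to.

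The libraries came from 2 mouse cell lines, R08 embryonic stem cells (mESC), a male line kept without feeder cells, and Oli-neu cells (mOPC), a line of oligodendrocyte progenitors. Each line is a single source of cells, and replicates were batches of different passage. The mESC groups were 1FA, fixed with 1% formaldehyde (3 libraries), 2FA, fixed with 2% formaldehyde (3), ActD4, given actinomycin D at 5 µg/ml for 4 h to stop transcription before 1% fixation (2), and NPM (2). The mOPC groups were 1FA (3) and NPM (2). NPM stands for non-protein-mediated: nuclei fixed with 1% formaldehyde were treated with proteinase K and their crosslinks undone ahead of RNA ligation, which leaves contacts that do not need protein.

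Libraries held 251802 to 2832717 interactions, of which 2607 to 794857 were intergenic, so the NPM values rest on the fewest tags. The deposited files list only RNA-bin pairs that passed the authors' test on pooled replicates. A value of 0 below therefore means listed at 0 and carries no upper limit, and libraries of one group share one list of pairs, so their spread is smaller than that of independent experiments. Of 16 mESC markers 15 were listed in mESC 1FA and 3 in mOPC 1FA; Nanog and Pou5f1, which hold the pluripotent state, averaged 21.3 and 24 interactions per library in mESC 1FA and were listed at 0 in mOPC 1FA. Of 16 mOPC markers 14 were listed in mOPC 1FA and 8 in mESC 1FA; Sox6 averaged 12502 interactions there against 55.3 in the mESC group, whereas Nkx2-2 and Sox8 were listed at 0 in mOPC 1FA and Pdgfra averaged only 5 there against 44.3 in mESC 1FA. Of 10 markers of fibroblasts, neurons and astrocytes, 5 were listed in mESC 1FA (194.3 interactions summed) and 2 in mOPC 1FA (789.7 summed). Fewer cells of a type and less RNA per cell cannot be told apart in such bulk libraries.

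Some intergenic targets were narrow points that many different RNAs shared. The sequences of 4 such points are printed because they carried the shared contacts of the mESC NPM libraries; each is the 200-base window with the most contacts in its bin, on the + strand of mm10, with the 50 most contacted bases in capitals.
chr11:109011822-109012021: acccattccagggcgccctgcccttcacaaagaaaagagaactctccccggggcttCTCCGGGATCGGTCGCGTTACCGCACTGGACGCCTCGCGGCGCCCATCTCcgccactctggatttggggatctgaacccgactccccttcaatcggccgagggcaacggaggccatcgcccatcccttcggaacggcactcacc
chr15:85177662-85177861: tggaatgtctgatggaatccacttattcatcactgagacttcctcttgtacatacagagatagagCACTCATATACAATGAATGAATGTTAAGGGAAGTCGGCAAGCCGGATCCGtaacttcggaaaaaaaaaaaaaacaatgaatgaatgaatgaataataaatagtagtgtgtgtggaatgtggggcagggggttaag
chr6:3201402-3201601: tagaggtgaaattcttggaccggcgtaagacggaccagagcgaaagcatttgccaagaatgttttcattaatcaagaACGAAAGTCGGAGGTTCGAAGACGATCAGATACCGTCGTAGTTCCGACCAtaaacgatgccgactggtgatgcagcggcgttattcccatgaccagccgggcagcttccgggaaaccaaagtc
chr17:39846243-39846442: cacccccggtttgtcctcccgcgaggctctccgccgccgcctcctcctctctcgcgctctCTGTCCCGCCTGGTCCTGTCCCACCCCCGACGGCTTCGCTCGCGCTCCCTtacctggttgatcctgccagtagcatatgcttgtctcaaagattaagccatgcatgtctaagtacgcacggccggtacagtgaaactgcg
The chromosome 11 window lies in a bin that holds the gene model Gm11668, within 50 kb of Axin2, an inhibitor of Wnt signalling. It took 1088 of the 1456 intergenic contacts of its bin in mESC NPM, from 106 RNAs, and was 64.5% G and C. No other place on the assembled chromosomes of mm10 matched it over 160 bases or more at 90% identity. Unplaced sequences and the ribosomal RNA repeat unit were not searched, so a match there was not tested for any of these windows. Whether a window holds ribosomal RNA sequence was thus not tested beyond the matches given here. Nor was it tested whether the tags placed at these points belong to copies elsewhere. The chromosome 15 window took 231 of 241 contacts of its bin, from 19 RNAs, and all 231 fell on the 50 bases in capitals. The chromosome 6 window took 263 of 269 contacts, from 22 RNAs, and shared 96.0% identity over its 200 bases with the transcript AY036118 at chr17:39847313-39847512, in the bin of the chromosome 17 window. That last window lies in a bin with the gene models Gm26917, Gm42418 and AY036118, known for ribosomal RNA sequence, and 99 of its bases matched the transcript Gm26917 at 100% identity. It took 73 of 102 contacts, from 72 RNAs. The authors removed ribosomal RNA from the RNA tags.

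The share of contacts on intergenic DNA was highest in the 1FA and 2FA groups, lower in ActD4 and under 1% in NPM. In mESC 1FA the intergenic share was 28.4%, 27.5% and 28.1% in the 3 libraries (27.97% ± 0.445, SD, n = 3). In mESC 2FA it was 28.4%, 26.8% and 26.5% (27.23% ± 1.01, n = 3), so these libraries overlapped those of 1FA. In mOPC 1FA it was 24.0%, 25.9% and 25.3% (25.09% ± 0.957, n = 3), each below every mESC 1FA library (difference -2.89 points). Leaving aside DNA tags in the RNA's own gene, which are genic by definition, that difference was 0.0452 points (exact permutation p = 0.8), so its direction rests on them, and 2FA minus 1FA turned from -0.745 to 1.36 points. For comparison, 52.7% of the bases of the autosomes and the X chromosome lie outside genes of the annotation used here, and the intergenic share was below that in each group. The mESC 1FA libraries serve as control in 4 of the comparisons below.

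**Figure D1:**
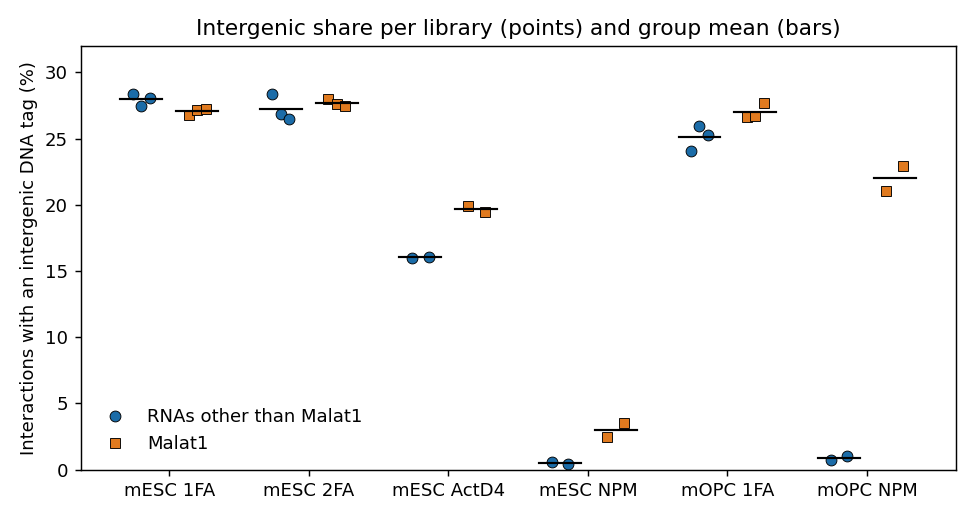
Share of interactions with an intergenic DNA tag (y axis, %) in each library (points) and group mean (bars), for RNAs other than Malat1 (circles) and Malat1 (squares). The share of other RNAs was 27.97% in mESC 1FA, 16.04% in ActD4 and under 1% in both NPM groups, whereas Malat1 stood at 22% in mOPC NPM. All tags are counted, those in the RNA's own gene included.

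In the 2 ActD4 libraries the share was 16.0% and 16.1% (16.04% ± 0.083), 11.9 percentage points below mESC 1FA. NPM libraries stood at 0.569% and 0.427% in mESC and at 0.712% and 0.996% in mOPC, 27.5 and 24.2 points below their 1FA controls. These groups did not overlap their controls, but an exact two-sided permutation test of 2 or 3 libraries against 3 cannot go below p = 0.1, which each comparison gave except 2FA against 1FA (p = 0.4). Leaving aside DNA tags in the RNA's own gene, the NPM libraries stood at 14.1% and 8.13% in mESC and at 30.3% and 30.7% in mOPC, against 40.7% to 41.5% in the 1FA libraries of both lines, so that mOPC NPM was 10.5 points below its control and ActD4 4.62 points. Over both cell types, with all tags, NPM was lower by 25.9 points (exact permutation p = 0.01, the smallest the design allows; adjusted over 34 tests 0.0567). Standardised to the same mix of distances, the shares were 20.1%, 20.5% and 15.0% in mESC 1FA, 2FA and ActD4, 17.9% in mOPC 1FA, and 2.24% and 5.58% in mESC and mOPC NPM, so 1FA, ActD4 and NPM kept their order in mESC, whereas the mean of 2FA moved from below to above that of 1FA.

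The intergenic share differed with the distance between RNA and DNA tag. In mESC 1FA it was 1.26% of contacts within 1 kb of the RNA tag, 9.48% at 1 to 10 kb, 22.2% at 10 to 100 kb, 36.98% at 100 kb to 1 Mb and 40.2% at 1 to 10 Mb, then 35.9% beyond 10 Mb and 25.6% in trans. In mOPC 1FA the same classes ran from 0.696% to a peak of 38.8% at 1 to 10 Mb and 21.7% in trans. In ActD4 the share peaked earlier, at 28.5% for 100 kb to 1 Mb, and was 22.5% at 1 to 10 Mb.

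**Figure D2:**
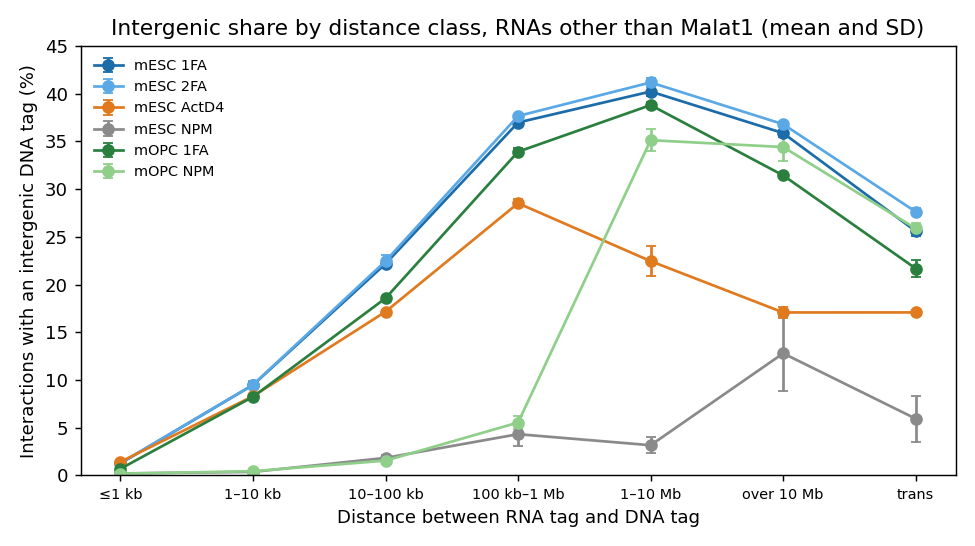
Share of interactions with an intergenic DNA tag (y axis, %) by the distance between the RNA tag and the DNA tag (x axis), mean and SD over the libraries of each group, RNAs other than Malat1. The 1FA and 2FA groups peaked at 1 to 10 Mb; mOPC NPM was at 5.54% for 100 kb to 1 Mb and at 35.1% for 1 to 10 Mb.

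At long range the intergenic shares of the NPM groups differed between the lines. Within 100 kb both were under 2%, but beyond 1 Mb the mOPC NPM share was 35.1% ± 1.15 and 34.4% ± 1.49 (n = 2), against 3.17% ± 0.860 and 12.8% ± 3.96 in mESC NPM. Such contacts were few: at 1 to 10 Mb the mESC NPM libraries held 159 and 391 interactions, intergenic or genic, and those of mOPC NPM 1332 and 1394. Lhfpl3 alone averaged 847 intergenic contacts per mOPC NPM library, 15.0% of them in trans, at a median cis distance of 9488 kb. Shares by distance were not computed without the first 45 Mb of chromosome 5, described further on. Without it the standardised share of mOPC NPM was 2.11% and 3.31%, against 2.65% and 1.80% in mESC NPM. With it the means were 5.58% and 2.24%.

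The median cis distance was 262, 241 and 262 kb for intergenic tags in mESC 1FA, against 92.7, 74.2 and 82.9 kb for genic tags. In mOPC 1FA it was 324, 350 and 340 kb against 66.8, 93.1 and 78.2 kb, in ActD4 92.0 and 89.0 kb against 19.8 and 20.97 kb, and in NPM under 1 kb for both. The share of cis contacts over 100 kb was higher for intergenic tags by 24.6 points on average (15 of 15 libraries; exact sign-flip permutation p = 6.1e-05, the smallest possible with 15 libraries; adjusted 0.0021). That direction rests on DNA tags in the RNA's own gene, which are genic by definition: leaving them aside, a setting added after the data were seen, the share was lower for intergenic tags (-12.5 points, exact sign-flip permutation p = 6.1e-05). This setting removes tags from the genic side alone and keeps intergenic tags beside the same gene. The reversal can therefore come from the setting itself, and neither direction is taken as a result. P-values over 15 libraries, here and below, are approximate: the libraries come from 6 groups, and those of a group share one list of pairs.

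Intergenic tags of the listed pairs lay nearer to genes than intergenic bases do. In mESC 1FA 12.9% lay within 1 kb of the nearest gene and 44.7% at 1 to 10 kb, whereas of all intergenic bases of the genome 4.89% and 28.2% lie that close. At 100 to 500 kb from any gene stood 2.07% of tags in mESC 1FA and 3.84% in mOPC 1FA, against 11.6% of intergenic bases. ActD4 tags were closer to genes (20.2% within 1 kb), and mESC NPM tags closer still (37.8% within 1 kb and none listed beyond 100 kb). The mOPC NPM libraries joined both ends: 27.4% and 27.9% of tags lay within 1 kb and 10.5% and 9.60% lay at 100 to 500 kb. Group means of mESC 1FA and mOPC 1FA within 1 kb differed by less than the spread of their libraries.

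**Figure D3:**
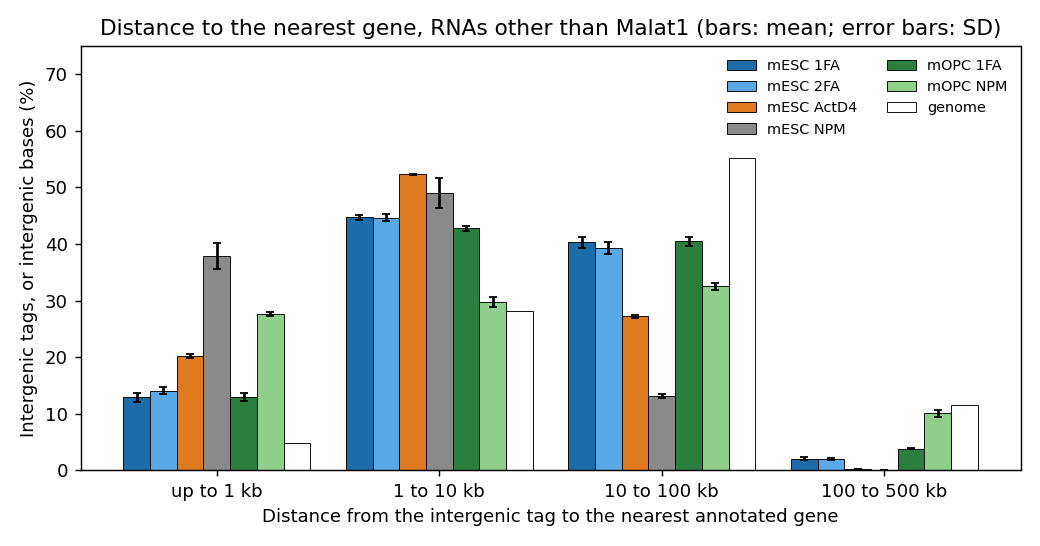
Distance from an intergenic DNA tag to the nearest annotated gene (x axis, classes) and share of the group's intergenic tags (y axis, %; bars are means and error bars SD over libraries), beside the same share of all intergenic bases of the genome. Tags of each group exceeded the genome's 4.89% within 1 kb, and mOPC NPM had 10.0% at 100 to 500 kb.

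The side of the gene on which an RNA's contacts lay differed between groups. Of intergenic tags within 10 kb of the gene that made the RNA, 63.7%, 64.0% and 64.5% lay downstream of the gene's end in mESC 1FA, 63.6%, 62.4% and 62.5% in 2FA and 63.8%, 62.9% and 60.7% in mOPC 1FA. All 9 libraries were above an even split. In ActD4 the share was 47.4% and 47.2%, below every 1FA library. In NPM it was 10.0% and 6.43% in mESC and 6.35% and 5.21% in mOPC. NPM minus 1FA over both cell types was -56.3 points (exact permutation p = 0.01; adjusted over 21 tests 0.105, a test added after the data were seen). Within 1 Mb the same shares were 51.0% to 52.1% in the 1FA and 2FA libraries. Over all 15 libraries the 1-Mb share differed from 50% by -10.7 points (exact sign-flip permutation p = 0.092), a mean over libraries on both sides of 50%.

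**Figure D4:**
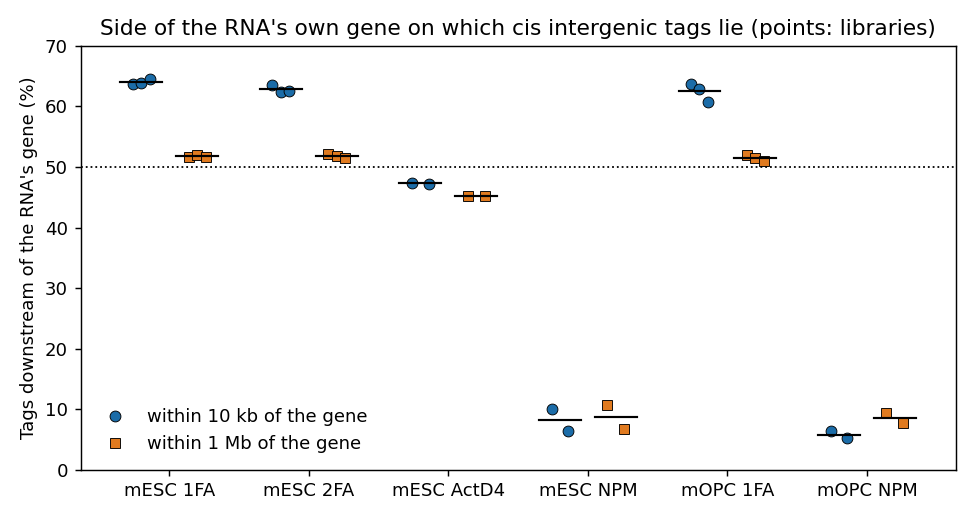
Share of cis intergenic tags that lie downstream of the gene that made the RNA (y axis, %; points are libraries, bars are group means, the dotted line marks an even split), for tags within 10 kb (circles) and within 1 Mb (squares) of the gene. The 1FA and 2FA libraries lie between 60.7% and 64.5% at 10 kb, ActD4 at 47.4% and 47.2%, and NPM at 10.0% or lower.

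Among tags within 10 kb of the gene, the upstream contacts of NPM sat at the start of genes. Of them 94.3% in mESC and 95.2% in mOPC lay within 1 kb of the gene, at a median of 105 and 145 bases, and 29.5% and 34.4% of their RNA tags lay in a 5′ untranslated region. In mESC 1FA upstream tags of the same 10 kb lay at a median of 3690 bases, 21.1% of them within 1 kb, and 2.41% of their RNA tags were in a 5′ untranslated region. Downstream contacts of mESC and mOPC 1FA had 12.7% and 15.9% of RNA tags in a 3′ untranslated region, against 3.56% and 4.01% for upstream contacts. Within 10 kb the mESC NPM libraries held 828 and 757 upstream tags and 92 and 52 downstream tags.

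Protein-coding RNAs made most intergenic contacts in 1FA, at 92.2% to 94.4% in mESC 1FA and 93.1% to 93.4% in mOPC 1FA. LncRNAs were 2.53% ± 0.038 of intergenic contacts in mESC 1FA, 1.67% ± 0.035 in ActD4 and 6.49% ± 0.172 in mOPC 1FA. They were more frequent on intergenic than on genic DNA by 4.00 points on average (14 of 15 libraries; exact sign-flip permutation p = 0.00104, adjusted 0.0176), a mean raised by mOPC NPM, where lncRNAs made 38.7% and 28.2% of intergenic contacts against 6.68% and 6.64% of genic ones. Leaving aside DNA tags in the RNA's own gene, the excess was 0.703 points (exact sign-flip permutation p = 0.0275). Over 1FA and NPM, mOPC exceeded mESC in this share by 17.3 points (exact permutation p = 0.0167, the smallest possible; adjusted 0.0708). Much of that came from Neat1, the lncRNA scaffold of paraspeckles, which alone made 25.1% of intergenic contacts in mOPC NPM. Without Neat1, a setting added after the data were seen, the difference was 5.90 points (exact permutation p = 0.0167) and lncRNAs made 12.3% and 10.3% of intergenic contacts in mOPC NPM. The ncRNA class of the files, which holds small RNAs and the mitochondrial ribosomal RNAs, made 32.8% and 14.1% of intergenic contacts in mESC NPM against 2.40% and 0.831% of genic ones. Narrow contact points, described further on, held 37.1% and 45.4% of intergenic contacts of all classes in these 2 libraries. In 1FA it was lower on intergenic than on genic DNA in all 6 libraries, at 2.97%, 5.12% and 4.06% against 3.40%, 5.31% and 4.37% in mESC.

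Trans contacts made up a small share of intergenic contacts in 1FA and ActD4 and a larger one in NPM. They were 2.88%, 4.97% and 3.94% of intergenic contacts in mESC 1FA, 7.63% and 8.13% in ActD4 and 0.809%, 0.811% and 0.874% in mOPC 1FA. In NPM they were 46.6% and 46.7% in mESC and 62.6% and 64.8% in mOPC, whereas on genic DNA of the same libraries they were 3.22% and 4.54%, and 1.31% and 1.83%. The NPM values rest on few places: without the first 45 Mb of chromosome 5, described further on, the trans share of mOPC NPM was 32.1% and 34.6%, and without 7 bins of narrow contact points that of mESC NPM was 19.2% and 9.35%. With all bins, NPM was higher than 1FA by 52.8 points over both cell types (exact permutation p = 0.01, adjusted 0.0567). Intergenic tags were higher in trans share than genic tags in 8 of 15 libraries (mean 13.95 points, exact sign-flip permutation p = 0.0835), the 4 NPM libraries among them. With DNA tags in the RNA's own gene left aside, the mean turned to -12.1 points (exact sign-flip permutation p = 6.1e-05). As that setting removes genic tags only, this reversal too can come from the setting itself.

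The RNAs with the most intergenic contacts in mESC 1FA were Gm22973, an RNA of the ncRNA class, at 27491 per library with 97.5% in trans, followed by 4 RNAs with at most 0.0207% in trans. Those were Wwox, an oxidoreductase gene at a fragile site (7154), Fgfr2, a fibroblast growth factor receptor (6861), Jarid2, a cofactor of Polycomb repression (6444), and Pvt1, a lncRNA beside Myc (5371). The same 5 led in 2FA. Pvt1 led mOPC 1FA at 9704 per library, and 54.6% of its contacts were intergenic (54.1% to 55.1%), against 48.8% in mESC 1FA (45.8% to 50.6%). It was followed by the lncRNA 2610035D17Rik (32.3% intergenic), Anks1b, a synaptic scaffold (23.3%), Sox6, a transcription factor of progenitors (26.7%), and Agap1, a regulator of Arf GTPases (33.4%). In ActD4 the leaders were Gm22973 (20.3%), the nucleolar RNA Snord118 (16.1%), Gli2, a Hedgehog transcription factor (32.6%), Arl15, a small GTPase (34.1%), and Jarid2 (35.8%).

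In NPM the leaders were another set. In mESC NPM they were Rmrp, the RNA of RNase MRP, at 118 contacts per library, the mitochondrial ribosomal RNAs mt-Rnr1 (96.5) and mt-Rnr2 (78.5), and the small nucleolar RNAs Rnu3a (54) and Snord14e (49.5), with 91.9% to 100% of these contacts in trans. In mOPC NPM Neat1, the scaffold of paraspeckles, made 25.1% of the intergenic contacts of other RNAs (2408 per library, 99.7% in trans), ahead of mt-Rnr1, Lhfpl3, mt-Rnr2 and Anks1b.

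The share of an RNA's contacts that was intergenic was compared for each RNA by limma on the log2 ratio of intergenic to genic counts, with adjusted p under 0.05 as the threshold. Genic counts, here and in the comparisons below, include tags in the RNA's own gene. A lower ratio can therefore come from more such tags, and the ratios were not recomputed without them. Without them the lower share of mOPC 1FA was not kept and that of ActD4 was smaller, as given above. Between mOPC and mESC 1FA, 5002 RNAs were tested and 32.1% passed, 230 higher (4.6%) and 1378 lower (27.5%) in mOPC. Of those with at least 100 interactions in both lines, the largest rises were of Gm49358 (8.03% ± 0.574 against 0.460% ± 0.796; 2 of 6 libraries without intergenic contacts), mt-Rnr1 (20.8% ± 3.71 against 3.61% ± 1.81), Cdh13, a cadherin (24.9% ± 2.72 against 5.24% ± 0.425), Plcb1, a phospholipase C (31.1% ± 1.69 against 8.56% ± 1.73), and Anks1b (23.3% ± 0.405 against 6.27% ± 1.30). The largest falls were of Tacc2, a centrosome protein (0.193% ± 0.334 against 6.11% ± 0.626), Ube3a, a ubiquitin ligase (1.97% ± 1.95 against 19.04% ± 5.76), Gm26904 (listed at 0 against 5.07% ± 1.90, so that its direction was fixed and its fitted size depends on the prior count), Zranb1, a deubiquitinase (1.05% ± 1.09 against 11.7% ± 0.523), and Ankrd11, a chromatin regulator (0.363% ± 0.058 against 3.77% ± 0.156). RNAs of very long genes moved both ways, 4 of 10 tested higher and 5 lower in mOPC: Magi2 and Macrod2 rose by 3.09 and 2.03 on the log2 scale, and Fhit fell by 1.92. Of 5 chromatin lncRNAs tested, Pvt1 rose by 0.34 (adjusted p = 0.00356), Kcnq1ot1, which silences an imprinted cluster, fell by 0.57 (adjusted p = 6.45e-05) and Dleu2 fell by 0.51, whereas Neat1 (0.03 ± 0.094, SE) and Sox2ot (-0.01 ± 0.15, SE) did not pass. The median over all tested RNAs was -0.33.

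In mESC 2FA against 1FA 1.31% of 7076 RNAs passed (16 or 0.226% higher, 77 or 1.09% lower; 42 to 166 in all when a library was left out, lowest without 1FA replicate 3 and highest without 2FA replicate 1), with Aoah and Dpp6 higher. Gm26694, Dync2h1, Ctbp2, Ank2 and Heatr1 had the largest falls of 31 lower RNAs with at least 100 interactions in both groups and no overlap between them. In ActD4 64% of 2465 RNAs passed, 19 higher (0.771%) and 1558 lower (63.2%), at a median of -0.97 on the log2 scale. Lower were all 7 mESC markers tested, 4 of 4 very long genes and 6 of 7 chromatin lncRNAs. Their medians of -0.90, -0.94 and -0.87 lay near the -0.97 of all RNAs tested. Slit3, an axon guidance ligand, and Tacc2 were listed at 0 intergenic contacts in ActD4 against 19.8% ± 0.478 and 6.11% ± 0.626 in 1FA, and Dock9, an exchange factor of Cdc42, was at 1.29% against 23.3%. The values of Slit3 and Tacc2 are a description, since they entered the test by intergenic contacts in 1FA alone, as did 83 RNAs in this comparison, each called lower. The higher ones included mt-Rnr1 (8.30% against 3.61%) and Usp10, a deubiquitinase (20.4% against 12.5%).

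In NPM most RNAs tested had no intergenic contact listed, 82.2% of 4894 in mESC and 74.6% of 5786 in mOPC, and entered the test by their 20 interactions of either kind and by intergenic contacts in 1FA alone. Of all tested, 99.2% passed in mESC, each lower, and 97.7% in mOPC, 5653 lower and 2 higher (0.0346%). The RNAs with intergenic contacts in both groups were 872 in mESC, of which 853 passed, each lower, and 1467 in mOPC, with 1425 lower and 2 higher. The medians over all tested, -5.14 and -5.38, depend on the prior count where a group is at 0, and genic contacts include those in the RNA's own gene, so these counts are a description. In mESC NPM limma called 0 higher at adjusted p under 0.05, and 4857 RNAs in either direction at unadjusted p under 0.05. Of RNAs with a mean of at least 20 interactions, 83.0% in mESC NPM and 77.3% in mOPC NPM had no intergenic contact listed, against 1.82% and 1.499% in 1FA. Tle4, a corepressor, was at 61.3% ± 1.83 in mESC 1FA and listed at 0 in NPM, and Zmiz1, a SUMO ligase cofactor, went from 43.3% ± 1.48 in mOPC 1FA to 0. Of 5 small structured RNAs tested in mESC, 2 passed, both lower, at a median of -0.58 over the 5: Gm22973 fell by 2.34 on the log2 scale (6.83% against 27.7%), and Rmrp by 0.94 (11.8% against 20.5%). Rnu3a, which serves ribosomal RNA maturation, stood at 13.3% ± 2.14 in mESC NPM against 13.4% ± 1.03 in 1FA, and in mOPC NPM Rn7sk, the RNA that holds the elongation factor P-TEFb inactive, stood at 25.7% ± 2.99 against 25.3% ± 1.34. All 12 chromatin lncRNAs tested in mESC and all 5 in mOPC fell, as did 99.2% and 97.7% of all RNAs tested. Of the chromatin lncRNAs listed in NPM, Malat1 included, 4 of 16 in mESC and 6 of 11 in mOPC had an intergenic contact there. Tested ones without such a contact entered by 1FA alone, so their direction was fixed. Kcnq1ot1 was listed at 0 in mESC NPM against 29.7%, and Neat1 in mOPC fell by 1.36 on the log2 scale (11.4% against 24.7%, adjusted p = 0.00068). mt-Rnr2 was the higher RNA of at least 100 interactions in mOPC NPM (17.5% ± 3.94 against 10.4% ± 2.73).

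Contacts were shared by few RNAs in most bins. RNAs that met a bin were counted over all libraries of a group. A bin with intergenic contacts was met by a median of 3 RNAs in mESC 1FA and 2 in mOPC 1FA, and by 1 in ActD4 and NPM; in mESC NPM 95.7% of bins were met by 1 RNA. The groups differ in libraries pooled and in listed contacts, which were fewest in mESC NPM. These medians were not compared at equal depth, so they are a description. The bin met by most RNAs in mESC 1FA was that of Gm26917 at chr17:39825001-39850000, with 87 RNAs in 123 intergenic contacts, out of 31756 contacts there in all. Next came the chromosome 11 bin of the first printed window, with 37 RNAs in 760 contacts led by Snord118. Within a library the former was met by 24 to 39 RNAs and the latter by 33 to 36, so their order is that of the pooled counts only. That bin was second in 2FA too (37 RNAs) and first in mESC NPM (106 RNAs, led by Rmrp). Then came gene-dense bins of chromosome 8, one with Junb, a transcription factor of the AP-1 family, and Hook2 (26 RNAs), and one with Hsd11b2 and Atp6v0d1 (26 RNAs). Of the 100 leading bins 47 were on chromosome 8 and 17 on chromosome 11 in mESC 1FA, and 47 and 26 in 2FA. The share of all contacted bins on these chromosomes was not computed, so these counts are a description. The copy number of these chromosomes was not tested.

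A small number of bins held most of their intergenic contacts at narrow points. In 7 bins, at least 100 intergenic contacts were listed in some group with over 80% of them in 1 kb, a rule set after the data were seen. The chromosome 15 and chromosome 6 bins of the printed windows met it only in mESC NPM, so the shares that follow are a description. These 7 bins held 37.1% and 45.4% of intergenic contacts in the mESC NPM libraries (56.6% and 58.0% of those of Malat1). In the 1FA, 2FA and ActD4 libraries they held 0.0302% to 0.181%, and in mOPC NPM 0.461% and 2.74%. Outside these bins, trans contacts made 19.2% and 9.35% of intergenic contacts in mESC NPM, against 46.6% and 46.7% with them. Whether these points hold ribosomal RNA sequence was not tested beyond the matches given for the printed windows.

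In mOPC the leading bins lay on chromosome 5. Of the 100 leading bins 90 in mOPC 1FA and 92 in mOPC NPM were on it. For comparison, chromosome 5 took 10.2% of all intergenic contacts in each of mOPC 1FA replicates 1 and 2. In mOPC 1FA the bin at chr5:32450001-32475000, which holds Ppp1cb, a phosphatase subunit, was met by 70 RNAs, followed by bins of Agbl5 (67 RNAs), Mxd4 (66) and Tmem214 (62). In mOPC NPM 3 adjacent bins at or beside Fosl2, an AP-1 transcription factor, at chr5:32125001-32200000, were met by 34 to 36 RNAs each. Pooled over both libraries, the bin of Malat1 and Neat1 on chromosome 19 was met by 40 RNAs, but by 20 to 28 in a library. In the Fosl2 bins contacts were spread: in one of 548 intergenic contacts the best 200 bases held 12 (2.19%).

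The first 45 Mb of chromosome 5 took 64.0% and 62.5% of intergenic contacts in mOPC NPM and 81.54% and 80.02% of those in trans, against 5.71% and 5.95% of genic contacts. Genic contacts in trans were also frequent there, at 46.5% and 48.2% of them in mOPC NPM. In mOPC 1FA it took 6.18% ± 0.234 of intergenic and 6.996% ± 0.0764 of genic contacts, and in trans 34.0% ± 0.601 of intergenic and 26.8% ± 1.42 of genic contacts. In mESC 1FA it took 0.986% ± 0.006 of intergenic and 1.25% ± 0.0245 of genic contacts. In mOPC NPM the 5 Mb before 45 Mb held 2761 and 3872 intergenic contacts, those of Malat1 included, and the 5 Mb after it was listed at 0 in both libraries. Without this stretch the intergenic share of mOPC NPM was 0.336% ± 0.089 against 0.499% ± 0.0997 in mESC NPM, and the trans share of intergenic contacts in mOPC minus mESC, over 1FA and NPM, went from 6.96 (exact permutation p = 0.333) to -8.62 points (exact permutation p = 0.0167). The copy number of this stretch in the 2 lines was not tested.

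**Figure D5:**
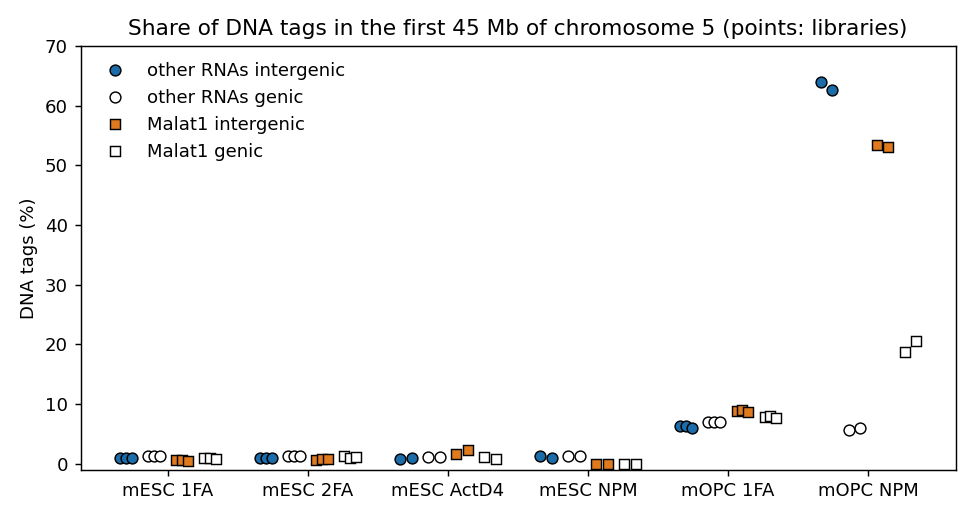
Share of DNA tags that lie in the first 45 Mb of chromosome 5 (y axis, %), by library (points), for intergenic (filled) and genic (open) tags of other RNAs (circles) and Malat1 (squares). The intergenic tags of both mOPC NPM libraries lie between 53.0% and 64.0%, against 0.974% to 1.27% for other RNAs in mESC NPM.

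With all tags counted, those in the RNA's own gene included, the Malat1 share was close to that of other RNAs in 1FA and 2FA and far above it in mOPC NPM. The mESC 1FA libraries stood at 26.8%, 27.1% and 27.2%, the mOPC 1FA libraries at 26.6%, 26.7% and 27.7%, and those of ActD4 at 19.9% and 19.4%. In mESC NPM it was 2.47% and 3.50%, over 7010 and 8163 contacts, and in mOPC NPM 21.1% and 22.9%, over 55344 and 84479. Malat1 exceeded other RNAs by 3.93 points on average, most in mOPC NPM (11 of 15 libraries, exact sign-flip permutation p = 0.00586, adjusted 0.0567). That excess counts tags in the RNA's own gene, which are genic by definition. With these left aside, other RNAs stood at 40.7% to 42.7% in 1FA and 2FA and 36.7% and 36.0% in ActD4. In NPM they then stood at 14.1% and 8.13% in mESC and 30.3% and 30.7% in mOPC. These values are above the Malat1 shares given here, which were not recomputed in this way. Malat1 made 57.4% and 63.7% of the intergenic contacts of mOPC NPM, against 0.704% to 14.4% in the 1FA, 2FA and ActD4 libraries. Of its intergenic contacts in mOPC NPM 53.3% and 53.0% lay in the first 45 Mb of chromosome 5, against 18.7% and 20.6% of its genic ones. Without that stretch its intergenic share in mOPC NPM was 13.3% and 14.96%.

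Bins were compared between mOPC and mESC 1FA by limma on log2 counts scaled to library size: of 22778 tested 67.8% passed, 6020 higher in mOPC (26.4%) and 9434 lower (41.4%). A bin could enter through 1 group alone, in which case its direction was fixed: 2305 reached the minimum of 10 contacts only in mOPC libraries and 6589 only in mESC libraries. Among the 13884 that reached it in at least 1 library of each group, 3715 were higher and 3435 lower in mOPC. In the first 45 Mb of chromosome 5, 296 of 405 tested bins were higher and 38 lower, at a median of 2.99 on the log2 scale, whereas elsewhere it was -0.41. The bins with the largest excess in mOPC, given as a description since they entered through mOPC alone, lay at chr5:41150001-41200000, chr5:41325001-41350000, chr5:41425001-41450000 and chr15:91950001-91975000, at 189 to 323 contacts per library and listed at 0 in mESC, so no fold is given. Those with the largest deficit, which entered through mESC alone, at 124 to 182 contacts per library in mESC and listed at 0 in mOPC, lay at chr13:97500001-97525000, chr8:43275001-43300000, chr12:86525001-86550000, chr8:89000001-89025000 and chr8:33950001-33975000. Between 2FA and 1FA in mESC 0.817% of 21668 bins passed, 40 higher (0.185%) and 137 lower (0.632%), although 0 bins passed when 1FA replicate 1 was left out and 427 when 2FA replicate 1 was. With libraries paired by replicate number, 495 bins passed.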

How the data were processed

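RADICL-seq tags of 15 libraries (32 samples: an RNA and a DNA entry per library, and those of a resequenced run of mESC NPM replicate 1) were analysed. The authors extracted tags, removed artefacts, ribosomal RNA and PCR duplicates, aligned both tags to mm10 with BWA 0.7.15-r1140, assigned RNA tags to GENCODE M14 genes, binned DNA tags in 25 kb and kept pairs of RNA and bin past a one-sided binomial test on pooled replicates. The deposited tables hold 1 line per interaction, or several where annotations overlap, with other fields that give tag positions and annotation, and with the deposited p-value of the pair, of which the adjusted one was used here, only at a stricter 0.001. Lines with the same tag positions and gene were merged to 1 interaction, and interactions were counted from these.

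The 6 groups and their members, lists and tests were chosen with earlier results of these data known. Shares were computed per library and compared by exact permutation tests over libraries; standardised shares weight 7 distance classes by the pooled mix. Counts per bin (at least 10 contacts in as many libraries as the smaller group holds) and intergenic to genic ratios per RNA (at least 20 interactions in each library and 1 intergenic contact somewhere, with a prior count of 0.5) were tested by limma 3.58.1 in R 4.3.3, with Benjamini-Hochberg adjustment over all tested. RNAs without any intergenic contact were left out of the ratio test after the data were seen. On simulated data limma recovered 100% of bins changed by 2 log2 units and 49.4% of those changed by -1 in mOPC against mESC 1FA, but called 84.7% of unchanged bins for mESC NPM, 48.4% for mOPC NPM and 7.82% for ActD4, so bins of those groups were not tested. Named RNAs and bins were the leaders by mean contacts or distinct RNAs, and the 5 largest called changes each way with a mean of at least 100 interactions in both groups (bins: in the higher group) and groups apart, plus lists of chromatin lncRNAs, small structured RNAs, very long genes and cell type markers. Nearest genes and window sequences used the GENCODE M21 annotation and the GRCm38.p6 genome (mm10); 4.26% of intergenic tags lay inside M21 genes. Matches used blastn 2.17.0 against the assembled chromosomes and the M21 transcripts. Precision is set by the number of libraries and by tag counts. P-values of comparisons between groups rest on the spread between batches of different passage, which the shared list of pairs makes smaller. They are therefore approximate, and so are the limma calls. Those over all 15 libraries are approximate as well, since the libraries of a group are not independent.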

Additional observations from a re-analysis of the deposited data

Results flagged for a closer look

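The difference between NPM and 1FA in the intergenic share was smaller in mOPC than in mESC by 3.24 percentage points (exact permutation p = 0.0167, the smallest the design allows; adjusted over 34 tests 0.0708), and was listed here for that test. As both NPM shares were under 1%, most of it is the difference of 2.89 points between the 1FA shares. Without the first 45 Mb of chromosome 5 it was 2.61 points (exact permutation p = 0.1), and with DNA tags in the RNA's own gene left aside 19.4 points (exact permutation p = 0.217).

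The trans contacts of Malat1 differed in opposite directions between NPM and 1FA. Their intergenic share differed by -6.47 points in mESC, each NPM library lying below each 1FA library, and by 13.3 points in mOPC, each NPM library lying above. That the 2 changes differ was not tested.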

How the results depend on the processing

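Of 540 alternative computations of 34 share results, 497 kept their direction and side of the threshold, 20 reversed, 18 lost p under 0.05 and 5 gained it. In comparisons of 2 groups p cannot go below 0.1, so there only the direction could change, and the count of 497 is no measure of robustness for them. Over all bins and RNAs tested, calls moved with the filter: without one, bins of mOPC against mESC 1FA gave 30348 calls and with 5 times the minimum 2274, those of 2FA against 1FA 5243 and 4, and RNA ratios gave 3645 and 951 (mOPC against mESC), 35 and 16 (2FA), 4910 and 350 (ActD4), 9043 and 892 (mESC NPM) and 8893 and 2239 (mOPC NPM); fewer features are tested at the higher minimum. Leaving out each library, 2FA bins ranged from 0 calls (without mESC 1FA replicate 1) to 427 (without mESC 2FA replicate 1), 2FA ratios from 42 to 166 and ActD4 ratios from 1207 to 2708 (without ActD4 replicate 2). Same-numbered libraries did not all correlate over 0.1 in their deviations (2FA bins 0.0812, 0.146 and 0.141), so numbers were not taken as pairs. For 2FA bins, libraries of different number correlated at -0.0153 to -0.114, so pairing by number remains possible there. With the replicate block 2FA bins gave 495 calls, against 177 without it. With the block, NPM against 1FA over both cell types gave -25.8 points for the share, -15.0 standardised, 52.8 for trans (exact permutation p = 0.125 each) and 13.7 for lncRNAs (p = 0.25), and lncRNAs in mOPC minus mESC 14.6 (p = 0.0625). With so few pairs this test cannot go below 0.125 for NPM against 1FA and 0.0625 for mOPC minus mESC, so none of these results could stay under 0.05. With the replicate block, no other share result changed its side of the threshold and no other count of calls moved by over 1.5 times.

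With DNA tags in the RNA's own gene left aside, the share in mOPC minus mESC 1FA was 0.0452, in 2FA minus 1FA 1.36, and in mOPC minus mESC over 1FA and NPM 9.74. That last difference was 0.00188 with each pair counted once, -1.47 without the 10 most captured RNAs and -1.47 without the first 45 Mb of chromosome 5 (exact permutation p = 0.0167 for each of the latter 2). Standardised it was -0.369 without the 10 RNAs, -0.0628 at adjusted p under 0.001 and -0.798 without chromosome 5. The trans share in mOPC minus mESC 1FA was 7.71 with Malat1, 0.61 without Malat1 and Gm22973, and 0.104 without the 10 RNAs; in 2FA minus 1FA it was -0.277, -0.0399 and -0.0211; over both conditions it was 21.1, 8.94, -6.1 and, without chromosome 5, -8.62. The lncRNA share in 2FA minus 1FA was -0.914 with Malat1, in mESC NPM minus 1FA -0.477 with pairs counted once and -0.436 to 1.05 by library left out, and over both cell types 13.75 with pairs counted once and 10.99 to 16.3 by library left out, where 9 of 10 lost p under 0.05. The difference of the NPM effects was 2.61 without chromosome 5 and 19.4 with own-gene tags left aside (exact permutation p = 0.217). The excess of intergenic trans was 17.5 with Malat1 (exact permutation p = 0.0104) and -12.1 with tags in the RNA's own gene left aside, where that of cis contacts over 100 kb was -12.5 (exact permutation p = 6.1e-05 for both), and that of Malat1 was 3.14 at adjusted p under 0.001 (p = 0.0538). Chromosome 5, stacked bins, leaving out Neat1, and leaving own-gene tags aside within libraries and for the NPM effects were chosen after the data were seen. Leaving own-gene tags aside removes genic tags only, so a change of direction within libraries can come from that setting itself. The causes of these changes were not tested. Bins of ActD4 and NPM were not run, as described. The mESC NPM libraries hold the fewest intergenic contacts, 2434 and 2567, which limits the precision of their shares.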
